A study of Rattus norvegicus with 12 samples.

Results

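RNA of cultured rat oligodendrocyte precursor cells was compared after 8 h with tunicamycin and after 8 h without it. The 6 libraries at 8 h, 3 per group, were picked by the treatment and time in their labels, out of 12 libraries in the series. The control cells received 0 µM and the treated cells 5 µM tunicamycin, and no other agent is named for either group. The cells had been taken from the spinal cord of adult rats, kept frozen and grown for at most 6 passages. Libraries were prepared from total RNA after ribosomal RNA removal. The libraries came from 3 independent experiments, and the other 6 libraries had the same doses for 2 h.

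Oligodendrocyte precursor cells divide in the adult central nervous system and give rise to the cells that form myelin, a sheath that needs large amounts of membrane and secreted protein. Tunicamycin blocks the first step of N-linked glycosylation, so that many new glycoproteins fail to fold in the endoplasmic reticulum. Cells answer with the unfolded protein response, in which the sensors PERK, IRE1 and ATF6 slow protein synthesis and raise the transcription of chaperones, degradation factors and amino acid genes. Prolonged stress can turn the same response toward cell death, and the study chose 8 h as a time before death sets in.

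The genes carry Ensembl identifiers and no names. None of the 32402 identifiers matched an entry of the reference gene table given with the data (0 of 32402), in which 0 of 47357 genes carry an Ensembl identifier. The lists drawn up for the branches of the unfolded protein response, lipid synthesis, the cell cycle, myelin and other cell types therefore gave no result, and the label of the cells could not be checked against marker genes. Promoter sequences could not be tied to the genes for the same reason. Genes are described below by their levels, the size of their change and their behaviour in other libraries, and 4 are given by identifier.

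One control library stood apart from the rest. In control 8 h replicate 2, 952 genes exceeded the average of the other 2 controls by 2-fold or more on the scale of log2(FPKM + 1), where in the other 5 libraries 73 to 138 genes did so. Genes lower than the other 2 of the group by 2-fold or more numbered 202 in replicate 2, against 345 and 422 in controls 1 and 3. For controls 1 and 3 the average includes replicate 2, which bears on both of their counts. FPKM is the number of fragments of a gene scaled to the length of the gene and the size of its library. The summed FPKM of this library was 588250, against 699522 to 764988 in the others, and 12224 of its genes reached 1 FPKM, against 11414 to 11600. Its Pearson correlation with the other controls, across genes, was 0.936 and 0.938, and that between the other 2 controls was 0.981. The first principal component held 48.8% of the variance. It placed the treated libraries at 29.2 to 35.7 and the controls at −20.2 to −46.8, with replicate 2 at the far end. The second component held 29.4% and set replicate 2, at −41.4, against the other controls at 28.8 and 30.8. Values without this library are therefore given beside the main ones.

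By 8 h of tunicamycin, 1434 genes had risen and 1161 had fallen among 11737 tested, which is 22.1% of them (limma, adjusted p under 0.05 with Benjamini-Hochberg adjustment, 3 libraries against 3). The rises made up 12.2% and the falls 9.89% of the genes tested, and the median log2 fold change over all genes tested was −0.02. All 2595 called genes had treated libraries that lay wholly on one side of the controls, as had 42.2% of all genes tested. The fold changes of the called genes were mostly below 2-fold. Among rises the median log2 fold change was 0.78, with quartiles at 0.57 and 1.10. Among falls it was −0.80, with quartiles at −1.05 and −0.61. In bulk RNA, fewer cells of a type and less RNA per cell cannot be told apart.

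Without control 8 h replicate 2, 2055 genes rose (17.7%) and 2011 fell (17.3%) among 11611 tested, together 35.0%. Of the genes called with all 6 libraries, 1422 of the 1434 rises and 1120 of the 1161 falls were called in the same direction without that library, and 0 were called in the opposite direction. A further 633 rises and 891 falls were called only without it, and 1504 of these had been tested with all 6 libraries. The count also moved with other libraries. It was 753 rises and 542 falls without control replicate 1, and 1208 and 853 without control replicate 3. Without tunicamycin replicate 1, 2 or 3, there were 878, 788 and 544 rises, and 766, 624 and 398 falls.

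**Figure D1:**
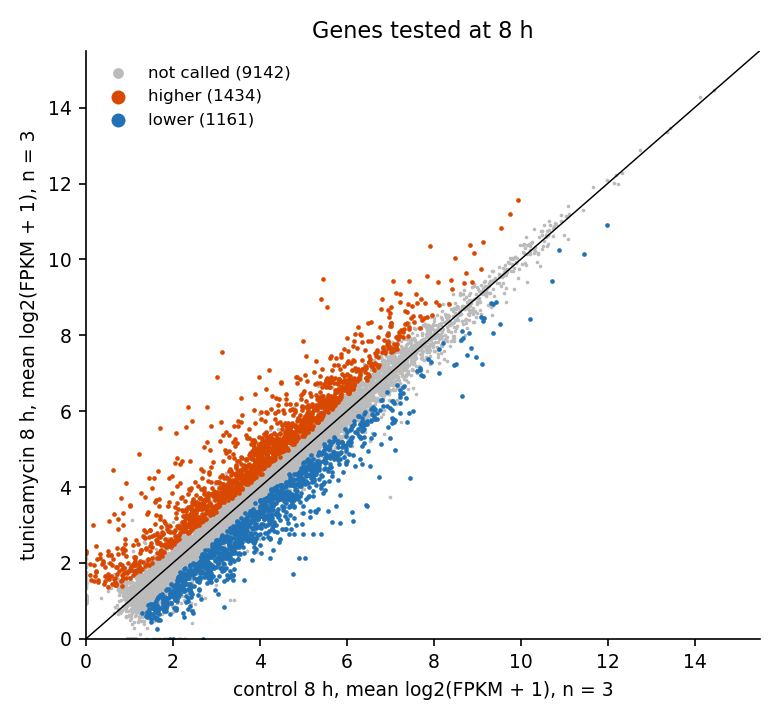
Mean log2(FPKM + 1) of each of the 11737 genes tested in the 3 control libraries (x axis) and the 3 tunicamycin libraries (y axis) at 8 h, with the line of equal levels. Orange points are the 1434 genes called higher, blue points the 1161 called lower and grey points the 9142 not called, and called genes are spread over most of the range of expression.

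On the scale of log2(FPKM + 1), more of the large changes were rises than falls, most clearly past 4-fold. At least a 2-fold change was called for 443 rises (3.77% of the genes tested) and 348 falls (2.96%), at least 4-fold for 75 rises and 24 falls, and at least 8-fold for 14 rises and 3 falls. Without control replicate 2 these counts were 511 and 414 at 2-fold, 86 and 33 at 4-fold, and 16 and 6 at 8-fold. The levels of the genes past 4-fold were as follows, with the direction of the contrast partly set by the scale. The 75 rises had a median of 5.66 FPKM in control and 40.7 FPKM with tunicamycin. The 24 falls had a median of 49.1 FPKM in control and 7.42 FPKM with tunicamycin. In 2 of the 75 all controls are listed at 0, and in 1 of the 24 all treated libraries are. Since FPKM is scaled by gene length, these levels can be set side by side. The offset of 1 in log2(FPKM + 1) shrinks the fold changes of low genes, so genes that are low in both groups can hardly reach 4-fold. With an offset of 5 in place of 1, 255 rises and 129 falls reached 2-fold. With an offset of 0.1, 540 rises and 517 falls did, so the lean toward rises at 2-fold depended on the offset. Counts at 4-fold and 8-fold were made at the offset of 1 only, so whether they depend on it was not tested. At the offset of 1, calls of at least 2-fold made up 30.9% of all rises and 30.0% of all falls.

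The largest rise was that of ENSRNOG00000007319. Its 3 controls at 8 h stood at 6.95, 8.57 and 7.75 FPKM, and its 3 treated libraries at 167, 214 and 190.2 FPKM. The groups lay far apart, and control replicate 2 was close to its partners. The means were 7.76 ± 0.81 and 190.3 ± 23.2 FPKM (SD, n = 3 each), a ratio of 24.5, and the log2 fold change was 4.45 (SE 0.13, adjusted p = 7.75e-05 by limma). At 2 h the same gene stood at 5.67, 3.99 and 7.47 FPKM in control and at 14.6, 12.96 and 15.2 FPKM with tunicamycin, so the treated libraries were already above the controls but far below their level at 8 h.

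The next largest rise, of ENSRNOG00000006789, began from a higher level. Its controls at 8 h were 43.2, 41.1 and 44.5 FPKM and its treated libraries 721, 712 and 700.1 FPKM, the smallest spread among the treated libraries of the 4 genes relative to the mean. The means were 42.9 ± 1.74 and 711 ± 10.5 FPKM (SD, n = 3 each), a ratio of 16.6, and the log2 fold change was 4.02 (SE 0.10, adjusted p = 7.75e-05 by limma). With tunicamycin at 2 h it stood at 160.3, 133 and 132 FPKM, between the controls at that time (46.4, 37.2 and 46.2 FPKM) and the treated libraries at 8 h. For both genes the treated libraries at 2 h lay above every control and below every treated library at 8 h.

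The largest fall was that of ENSRNOG00000009550, an abundant gene in untreated cells. Its controls at 8 h were 177, 169 and 180.3 FPKM, and its treated libraries 20.1, 16.2 and 17.2 FPKM. The treated level was 9.82-fold lower on the ratio of means, and the log2 fold change was −3.23 (SE 0.12, adjusted p = 7.75e-05 by limma). The 2 h libraries showed no such gap: 205, 193 and 186 FPKM in control and 205, 211 and 199 FPKM with tunicamycin, with overlapping groups.

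The next largest fall, of ENSRNOG00000014107, differed in the controls. Control replicate 2 stood at 16.6 FPKM, below the other controls at 32.5 and 32.2 FPKM, while the treated libraries were at 2.37, 2.04 and 2.49 FPKM. The treated level was 11.8-fold lower on the ratio of means, and the log2 fold change was −3.03 (SE 0.26, adjusted p = 0.00107 by limma). Without control replicate 2 it was −3.34 (SE 0.09, adjusted p = 0.000208 by limma). At 2 h its controls were 36.8, 45.9 and 37.4 FPKM and its treated libraries 27.3, 29.7 and 27.8 FPKM, which did not overlap. The 2 falls therefore differed at 2 h, with overlapping groups in the one and lower treated values in the other.

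**Figure D2:**
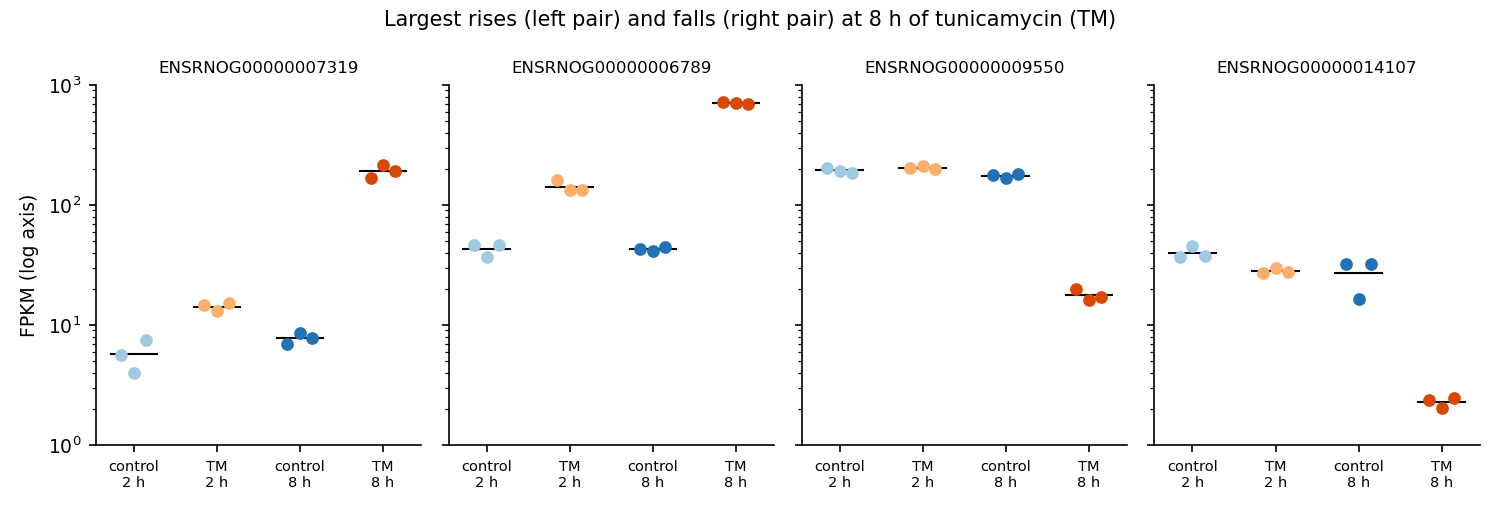
FPKM (log axis, shared by the panels) of the 2 largest rises and the 2 largest falls at 8 h in each of the 12 libraries, with a bar at the mean of each group of 3; TM stands for tunicamycin. Both rises have intermediate values at 2 h of tunicamycin. ENSRNOG00000009550 has overlapping groups at 2 h and lower treated values at 8 h. The low control value of ENSRNOG00000014107 at 8 h is replicate 2.

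The 12 largest changes each way are described here by their ranges. The rises had log2 fold changes from 3.27 to 4.45, with limma adjusted p-values up to 0.000342, and 10 of the 12 had a mean under 10 FPKM in control. The falls had log2 fold changes from −2.59 to −3.23, with limma adjusted p-values up to 0.0122, and 11 of the 12 had a mean of at least 20 FPKM in control. In 1 of the 12 falls all treated libraries are listed at 0, so that its fitted value is no measure of its fold. On this scale a large fall needs a high control level and a large rise does not, so the contrast in control levels follows from ranking on the fold change. All 24 genes were also called without control replicate 2, with log2 fold changes from 3.29 to 4.51 for the rises and from −2.51 to −3.34 for the falls. At 2 h, 5 of the 12 rises were at least 2-fold higher with tunicamycin, against 96 of all 11737 genes tested. The log2 fold changes of the 12 rises at that time ran from −0.02 to 1.69 with a median of 0.55. Among the 12 falls, 0 were at least 2-fold lower at 2 h, against 55 of all 11737. The log2 fold changes of the 12 falls then ran from −0.84 to 1.57 with a median of 0.03.

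The weight of the changed genes can also be given as a share of the FPKM summed over tested genes. The 1434 genes that rose held 6.29%, 7.80% and 7.34% of the FPKM summed over tested genes in the controls at 8 h, and 14.3%, 14.0% and 14.4% in the treated libraries. The 1161 genes that fell held 7.22%, 8.00% and 7.58% in the controls and 3.61%, 3.82% and 3.74% with tunicamycin. These shares describe genes chosen by the same libraries, so their direction at 8 h is fixed by the choice and has no test. The 2 h libraries were not used in the choice. There the genes that rose at 8 h held 6.82% ± 0.18 in control and 7.95% ± 0.27 with tunicamycin (SD, n = 3 each), and the groups did not overlap. For the falls, the share was 7.79% ± 0.72 in control and 7.50% ± 0.17 with tunicamycin (SD, n = 3 each), with overlapping groups. The sets called without control replicate 2 held more of the summed FPKM. At 8 h the rises then held 9.39% ± 0.99 in control (SD, n = 2) and 18.1% ± 0.31 with tunicamycin (SD, n = 3), and the falls 21.2% ± 1.21 and 13.6% ± 0.087. For the same sets the shares at 2 h were 9.43% ± 0.26 and 10.8% ± 0.37 for rises, and 22.2% ± 1.28 and 21.5% ± 0.47 for falls (SD, n = 3 each).

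**Figure D3:**
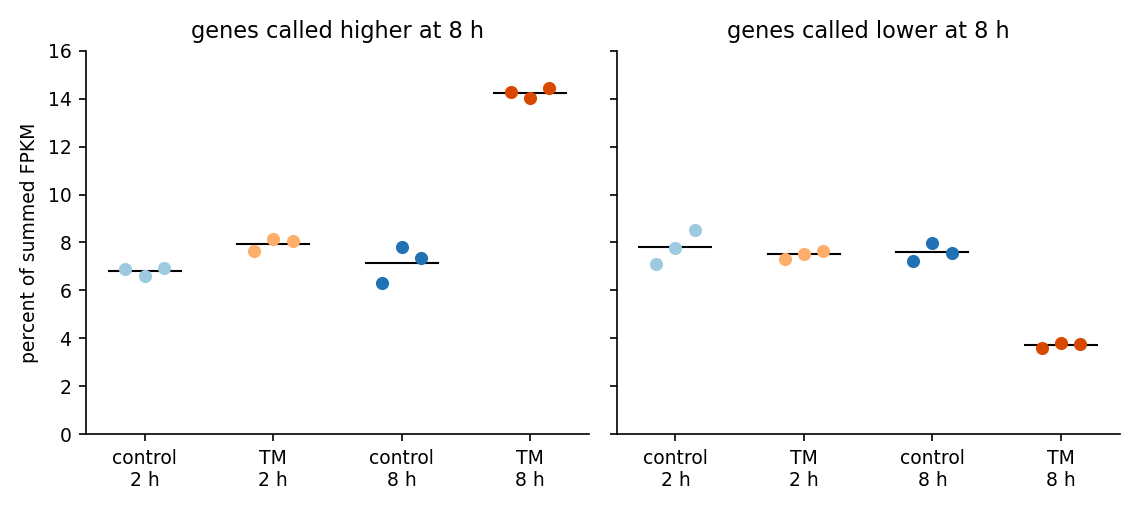
Percent of the FPKM summed over the 11737 tested genes held by the genes called higher (left) and lower (right) at 8 h, in each of the 12 libraries, with a bar at the mean of each group of 3; TM stands for tunicamycin. The separation at 8 h follows from how the genes were chosen, while at 2 h, which played no part in the choice, the treated values on the left lie above the controls.

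A small part of the called genes held 50% of the gain and of the loss in FPKM, and the loss rested on fewer genes. The 10 genes with the largest gain in mean FPKM held 19.1% of the summed gain of all genes that rose, and 83 of the 1434 together held 50% of it. For the falls, the 10 with the largest loss held 33.0% of the summed loss, and 38 of the 1161 held 50%. Without control replicate 2 the shares of the 10 leading genes lay closer, at 16.5% and 21.2%, and 112 and 72 genes held 50%. The summed loss was 25423 FPKM with all libraries and 60605 FPKM without that one, and the summed gain 51954 and 58644 FPKM.

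The balance of rises and falls at high expression depended on the same library. Genes were binned on their level in the 2 h controls, which are not part of the 8 h comparison. Of the 584 genes under 1 FPKM there, 92 rose and 3 fell. Genes this low at 2 h enter the test only where 1 or more of the 8 h libraries lift their mean to 1 FPKM. Without control 8 h replicate 2 this bin held 484 genes, of which 134 rose and 3 fell. Nothing is read from either split. Between 5 and 20 FPKM, with all 6 libraries, 533 of 3924 genes rose and 494 fell. At 100 FPKM or more, 106 of 1183 genes rose and 79 fell, so that rises made up 57.3% of the calls. Without control replicate 2, 141 of these 1183 rose and 286 fell, and rises made up 33.0%. The direction of the balance among abundant genes was therefore opposite with and without it. Between 20 and 100 FPKM the share of rises went from 54.1% to 46.0% in the same way. Between 1 and 5 FPKM, 239 genes rose and 191 fell, and 357 and 250 without it.

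**Figure D4:**
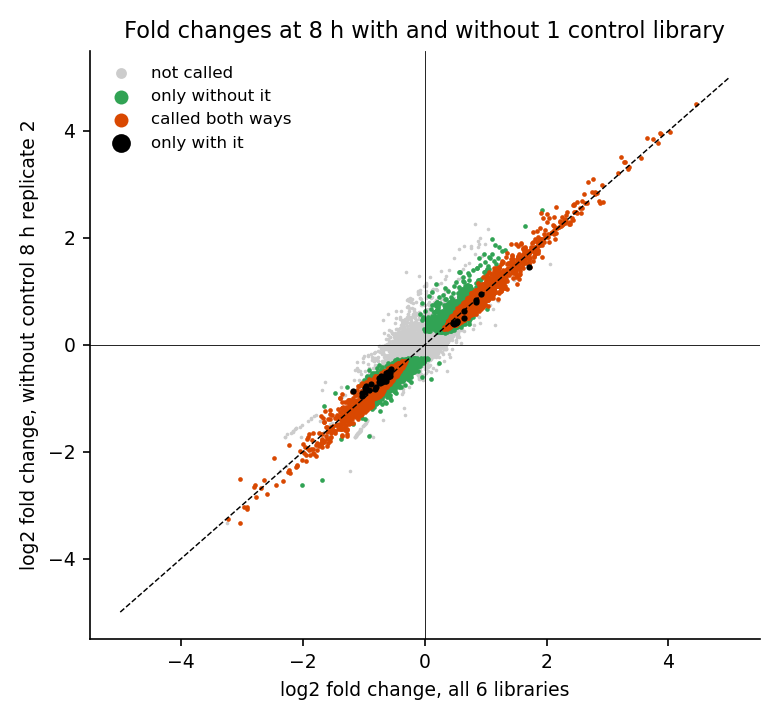
Log2 fold change at 8 h with all 6 libraries (x axis) against that without control 8 h replicate 2 (y axis) for the 11500 genes tested both ways, with dashes at equal values. Genes called both ways (orange) follow the dashes, and 1304 of the 1504 called only without that library (green) have the larger fold change without it. Being called only in that fit favours a larger fold change there, so nothing is read from this count.

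The median SD of log2(FPKM + 1) over the tested genes was 0.23 among the 3 controls, 0.09 between controls 1 and 3, and 0.13 among the 3 treated libraries. The value for controls 1 and 3 rests on 2 libraries, where a median SD runs lower than with 3. Why control replicate 2 differed was not tested.

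Most genes that changed at 8 h differed in the same direction at 2 h, by a much smaller amount. Of the 1434 genes that rose at 8 h, 1155 (80.5%) had a higher mean log2(FPKM + 1) with tunicamycin than in control at 2 h, against 45.9% of all genes tested. Of the 1161 that fell, 933 (80.4%) had a lower mean at 2 h, against 52.9% of all genes tested. The comparisons at 2 h and 8 h share no library. They do share experiments, since the libraries at both times came from the same independent experiments. The labels do not say which libraries share a culture. The same direction at 2 h is therefore not a result from separate experiments. The shifts at 2 h were small, with a median log2 fold change of 0.11 for the genes that rose at 8 h and −0.13 for those that fell, where their medians at 8 h were 0.78 and −0.80. Treated libraries lay wholly above the controls at 2 h for 454 of the 1434 (31.7%), against 10.4% of all genes tested, and wholly below for 252 of the 1161 (21.7%), against 8.20%. For genes called without control replicate 2, the shares with the same sign at 2 h were 78.1% of 2055 rises and 80.2% of 2011 falls.

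At 2 h, few of the genes had reached a 2-fold change. At that time 17 of the 1434 rises were at least 2-fold higher and 0 lower, and 0 of the 1161 falls were at least 2-fold lower and 4 higher. Over all 11737 genes tested, 96 were at least 2-fold higher and 55 at least 2-fold lower at 2 h, so the count of 17 is near that background. The effect itself differed between 8 h and 2 h for 14.8% of 11469 genes (limma interaction over all 12 libraries, adjusted p under 0.05). It was larger at 8 h for 901 of the 1404 rises in that test, and more negative at 8 h for 664 of the 1158 falls. These genes were picked on the 8 h libraries that also enter the interaction, so nothing is read from these counts or their direction. Of the genes with the largest rises at 8 h, 57 of the 75 past 4-fold (76%) were higher at 2 h, against 45.9% of all genes tested. At least 2-fold higher at 2 h were 9 of these 75 and 14 of the 443 past 2-fold, against 96 of all 11737. Among the 24 that fell at least 4-fold, 13 (54.2%) were lower and 11 higher at 2 h, near the 52.9% lower of all genes tested. Of the 348 that fell at least 2-fold, 288 were lower. The difference between the shares of the 24 and the 348 was not tested, and the 24 genes are part of the 348. Without control replicate 2, 23 of 33 genes that fell at least 4-fold were lower at 2 h, against 52.9% of the 11611 tested.

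**Figure D5:**
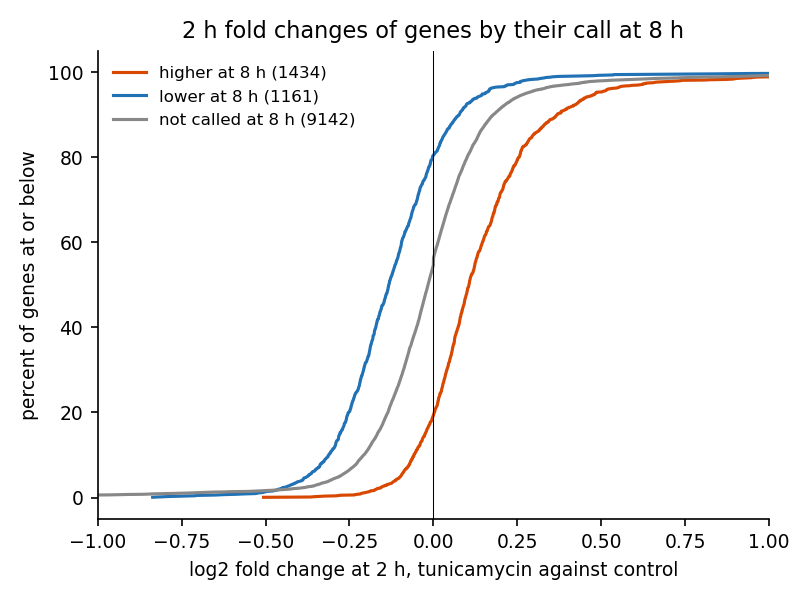
Cumulative percent of genes (y axis) by their log2 fold change at 2 h (x axis, cut at −1 and 1), drawn for the 1434 genes called higher, the 1161 called lower and the 9142 not called at 8 h. The curve of the genes that rose at 8 h is shifted to the right, with a median of 0.11, and that of the genes that fell to the left, with a median of −0.13.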

How the data were processed

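The authors deposited 1 table of FPKM values for 32402 Ensembl rat genes in 12 libraries. Per the submitters' processing notes, the tools include Cuffnorm (no version), Cuffdiff 2.1.1, Cufflinks 2.2.1, TopHat2 2.0.4 and FastQC 0.10.1, and the build is rn6. Neither a role nor an order is given for them. How fragments were counted, and the annotation release, are not given in the sources used here. Each column name gives a treatment, a time and a replicate number, which matched 1 sample title.

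Over the 6 libraries at 8 h, 12190 genes averaged 1 FPKM or more. An exact 0 can be a failed estimate, so 453 genes listed at 0 in one of the 6 libraries and at 10 FPKM or more in another were set aside, which left 11737 for testing. Values were transformed to log2(FPKM + 1). The 2 groups were compared with limma 3.58.1 in R 4.3.3, with variances moderated along a trend on expression (4 residual and 2.37 prior degrees of freedom). The effects at 8 h and 2 h were compared by an interaction term over all 12 libraries and 11469 genes, filtered in the same way. P-values measure the spread between the 3 libraries of a group. Alternatives left out single libraries or changed the libraries fitted, the pseudocount, filter, scaling, library weights or blocking.

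The rule for genes given by identifier took, where no names could be given, the 2 called genes with the largest rise and the 2 with the largest fall whose groups did not overlap. The comparison, gene lists and rules were chosen with earlier results of these data known.

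Absolute depth is unknown. Relative to the deepest of the 6 libraries, the estimated fragments behind 1 unit of FPKM ran down to 0.731 in tunicamycin replicate 1. Control replicate 2 had 0.761, as had control replicate 3. These relative depths rest on an estimated FPKM value of 1 fragment and are approximate. Whole fragments could not be recovered, since 59.8% of 29792 ratios between low values came within 0.03 of a whole number, so no count model was used and counting error cannot be given.

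The script was tested on simulated data before use. With 200 changed genes, it recovered 57% of changes of 1 log2 unit and 89% of those of 2. Of 148 calls, 2 were false. The simulated noise was independent between libraries, so no library stood apart as control replicate 2 did.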

Additional observations from a re-analysis of the deposited data

Results flagged for a closer look

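Tunicamycin had an effect at 8 h unlike that at 2 h in 1693 of 11469 genes (14.8%, limma interaction, adjusted p under 0.05), with 947 higher and 746 lower at 8 h. Among rises at 8 h that entered this test, 901 of 1404 (64.2%) had a larger effect at 8 h, and among falls, 664 of 1158 (57.3%) had a more negative one. None of them was called in the opposite direction (0 of each). These genes were chosen for their effect in the same 8 h libraries, so the shares and their direction are conditioned on that choice and support nothing. Leaving out control 8 h replicate 2 gave 2671 genes, and the count was 1100 without tunicamycin 8 h replicate 3 and 1113 without tunicamycin 2 h replicate 3.

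Each of the 4 genes given by identifier was among the 1693. The effect at 8 h minus that at 2 h, on the log2 scale, was 3.23 for ENSRNOG00000007319 (SE 0.24, adjusted p = 1.61e-05 by limma) and 2.33 for ENSRNOG00000006789 (SE 0.15, adjusted p = 7.41e-06 by limma). It was −3.31 for ENSRNOG00000009550 (SE 0.13, adjusted p = 6.35e-07 by limma) and −2.55 for ENSRNOG00000014107 (SE 0.30, adjusted p = 0.000287 by limma). The 4 genes and the 12 largest changes each way were likewise chosen on the 8 h libraries. Of the 12 largest rises at 8 h, the interaction was called for 12, and of the 12 largest falls for 11.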

How the results depend on the processing

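Each of the 4 genes given by identifier kept its direction and its call in all 18 alternatives (72 of 72 values). They were picked as the largest called changes in these libraries, and every alternative refits most of the same libraries, so little is read from this. The counts of genes moved with the setting. Leaving out single libraries gave 544 to 2055 rises, 398 to 2011 falls and 1100 to 2671 genes whose effect differed between the times, the last over all 12 libraries. Fitting all 12 libraries gave 2175 rises and 1939 falls, and 2526 and 2577 without control 8 h replicate 2. Without that library and with quantile normalization there were 2112 falls. Array weights gave 5123 and 5295, but their estimation did not converge and put a weight of 151 on tunicamycin replicate 3, so these counts rest on that library. With a pseudocount of 5, rises and falls of at least 2-fold numbered 255 and 129, and with a pseudocount of 0.1 they numbered 540 and 517. The fit with the replicate number as a replicate block gave 1143 rises and 954 falls. Deviations of same-numbered libraries correlated at 0.15, 0.19 and −0.14, and those of different-numbered libraries at −0.32 to 0.32. Deviations within a group depend on one another, so these values cannot decide whether libraries were paired. The running numbers in the column names follow the replicate numbers, but no label says that a replicate number marks an experiment, and pairing was not established. The fits of 11 libraries, of replicates 1 and 3 alone, and of quantile normalization without control replicate 2 were chosen after the data were seen. The planned counts by gene list were not run, as the identifiers have no names.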

Other observations

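The 453 genes set aside for their zeros have no fold at 8 h. Among them, 4 are listed at 0 in all 3 treated libraries and in 0 of the controls, and 5 in all 3 controls and 0 of the treated libraries. The most common pattern, with 109 genes, is a listed 0 in all 3 treated and 2 of the 3 controls. The zeros were spread over the libraries, from 188 genes in control replicate 2 to 293 in control replicate 3, and 13 of the 453 genes reached 100 FPKM in some library. Whether these genes were expressed where they are listed at 0 was not tested.

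By the median, genes varied less between the 3 treated libraries than between the 3 controls. Over all genes tested the median coefficient of variation of FPKM was 10.1% in the treated libraries, 17.5% in the controls and 7.32% in the controls without replicate 2. The median coefficient of variation of FPKM for genes that rose was 7.31% in the treated libraries and 12.8% in the controls, and 7.26% in the controls without replicate 2. For genes that fell it was 9.97%, 13.4% and 6.81%. The values without replicate 2 rest on 2 libraries. At equal spread the median from 2 values runs lower than that from 3, so they cannot be set against the treated values. Called genes were also picked in part for low spread in these libraries.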
